A study of Rattus norvegicus with 5 samples.

Results

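Glucose breakdown, lactate shuttling and the response to low oxygen were examined through 36 genes in rat parietal cortex, 21 days after an injection of kaolin. Kaolin is a clay that obstructs cerebrospinal fluid flow and enlarges the ventricles (hydrocephalus). Members were the non-control probes whose gene name, or its current or older rat symbol, was on the list. This gave 43 probes for all 36 genes, of 41012 non-control probes on the array. The only name that needed an older symbol was Pkm, listed as Pkm2. A total of 42 probes for 35 genes were bright enough to test, among 29118 tested probes for 24834 gene names. Pdk4, whose signal was well above background on 1 of 5 arrays in kaolin and 0 of 5 in saline, was not tested.

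Rats received kaolin or saline on postnatal day 1 and the cortex was taken on postnatal day 22. Strain, sex and the number of animals behind a sample are not given in the sources used here, so p-values measure the spread between these samples. On each of 5 Agilent arrays RNA from kaolin cortex, labelled with Cy3, was hybridised together with RNA from saline cortex, labelled with Cy5, and the dyes were never exchanged. Dye and treatment therefore cannot be told apart. The ratio used throughout is log2 kaolin over saline, so a value above 0 is a higher signal in kaolin. Replicates 1 to 4 were on 1 slide and replicate 5 on another.

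The arrays differed in how much they showed. Over tested probes the SD of the log2 ratio was 0.24 on replicate 2 and 0.34 to 0.51 on the others. Replicate 2 correlated negatively with every other array (Pearson r = -0.37, -0.17, -0.07 and -0.06 with replicates 1, 3, 4 and 5 across tested probes). All other pairs had positive correlations, from 0.12 for replicates 1 and 5 to 0.83 for replicates 3 and 4. Between 27957 and 29386 probes were well above background in a kaolin channel and between 27376 and 28935 in a saline channel. Cortical neuron markers were well above background on every array in both channels for 7 of 7 genes, as the tissue label has it. Microglia and macrophage markers had median ratios of -0.11, 0.11, 2.10, 1.35 and 1.57 on replicates 1 to 5. Cortical neuron markers had medians of -0.40, 0.35, -0.33, -0.23 and -0.31 in the same order. In bulk tissue, fewer cells of a type and less RNA per cell cannot be told apart.

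Glycolysis splits glucose into pyruvate in the cytosol. Pyruvate is taken into mitochondria, where pyruvate dehydrogenase acts on it, or is turned into lactate, which monocarboxylate transporters carry across membranes. In brain, astrocytes and endothelium take up glucose mainly through Slc2a1 (GLUT1) and neurons through Slc2a3 (GLUT3), and lactate made in astrocytes can be used by neurons. When oxygen falls, prolyl hydroxylases stop marking the HIF alpha subunits for destruction. HIF then binds short promoter elements and turns on glucose transporters, glycolytic enzymes and genes such as Adm and Bnip3.

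The core of that element, ACGTG or its variant GCGTG, was searched on both strands in promoter windows of 300 bases, from 250 before to 50 after each start (RefSeq, GRCr8). Windows were found for 33 of the 36 members; Slc2a3, Ndrg1 and Pgk1 had none. ACGTG occurred in the windows of 22 of 33 members (66.7%), against 20.9% of all 27457 genes in the table. GCGTG occurred in 15 of 33 (45.5%), against 32.4%. The windows of members were also richer in G and C, with a median of 63.3% against 51.7% over all windows. To show what the element looks like in genes whose ratios lay on either side of 0, stretches of 30 bases are printed below in the direction of transcription. Capitals mark a core of ACGTG, which reads CACGT where it lies on the opposite strand.
Angptl4 (chr7:15258894-15258923, minus strand): tgcagagacagtCACGTcgctcatggggtc
Bnip3 (chr1:203155043-203155072, minus strand): cgcacgcgccgcACGTGccacacgcgcccc
Ddit4 (chr20:28437158-28437187, minus strand): agaacgttgcgaACGTGcgcccggtgccta
Slc2a1 (chr5:138002459-138002488, plus strand): gtcccgccccggACGTGgtcctcaggcccc
Ldha (chr1:106507994-106508023, plus strand): agcccagcctacACGTGggttcccgcacgt
Slc16a1 (chr2:194812433-194812462, plus strand): cagcgcctagtcACGTGgcgggaagggggg
Eno2 (chr4:159267342-159267371, minus strand): acccgcgctcgtACGTGcgtctccgcctgc
Pgam1 (chr1:250672999-250673028, plus strand): ccctaattgcttACGTGcgctccgtgactg
In Bnip3, Ldha and Slc16a1 the core is preceded by C, so the same bases also hold it on the other strand. In Ldha a second ACGTG core follows, left in lower case. In Bnip3 the variant GCGTG, read as CACGC on the opposite strand, lies on both sides of the marked core, also in lower case. The 22 tested members with ACGTG had a median ratio of 0.03, from -0.38 to 0.67, and the 10 without had a median of 0.11, from -0.32 to 0.46. A match describes the letters of the window and is not a measured binding site.

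Across the tested members, ratios were small and no member passed the test. In limma 0 of 35 passed an adjusted p of 0.05, where 0% of all tested genes passed (0 of 24834), and the smallest adjusted p among members was 0.243. At an unadjusted p under 0.05 there were 7 members (20.0%): 3 were higher in kaolin and 4 lower. The background was 18.3% of all genes, 8.46% higher and 9.83% lower, so the members' share lay near it. Only Ldhb had the same sign on 5 of 5 arrays, 2.86% of members against 12.7% of all genes, of which 5.78% were above 0 and 6.94% below 0 on every array. The median of the members' mean ratios was 0.07, against -0.01 over all tested genes, and 23 of 35 (65.7%) were above 0, against 48.1% of all genes. That balance moved with how the dyes were evened out. With the scanner software's processed signals 26 were above 0 and 9 below, against 50.1% of all genes above 0. The authors' deposited table of log2 ratios also gave 26 and 9, against 48.4% of all genes above 0. With each array centred on its median in place of loess, 9 (25.7%) were above 0 and 26 below, against 30.3% of all genes above 0. All genes then had a median of -0.10, and 15 members lay above it. Means given below with median centring are to be read beside that median.

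**Figure D1:**
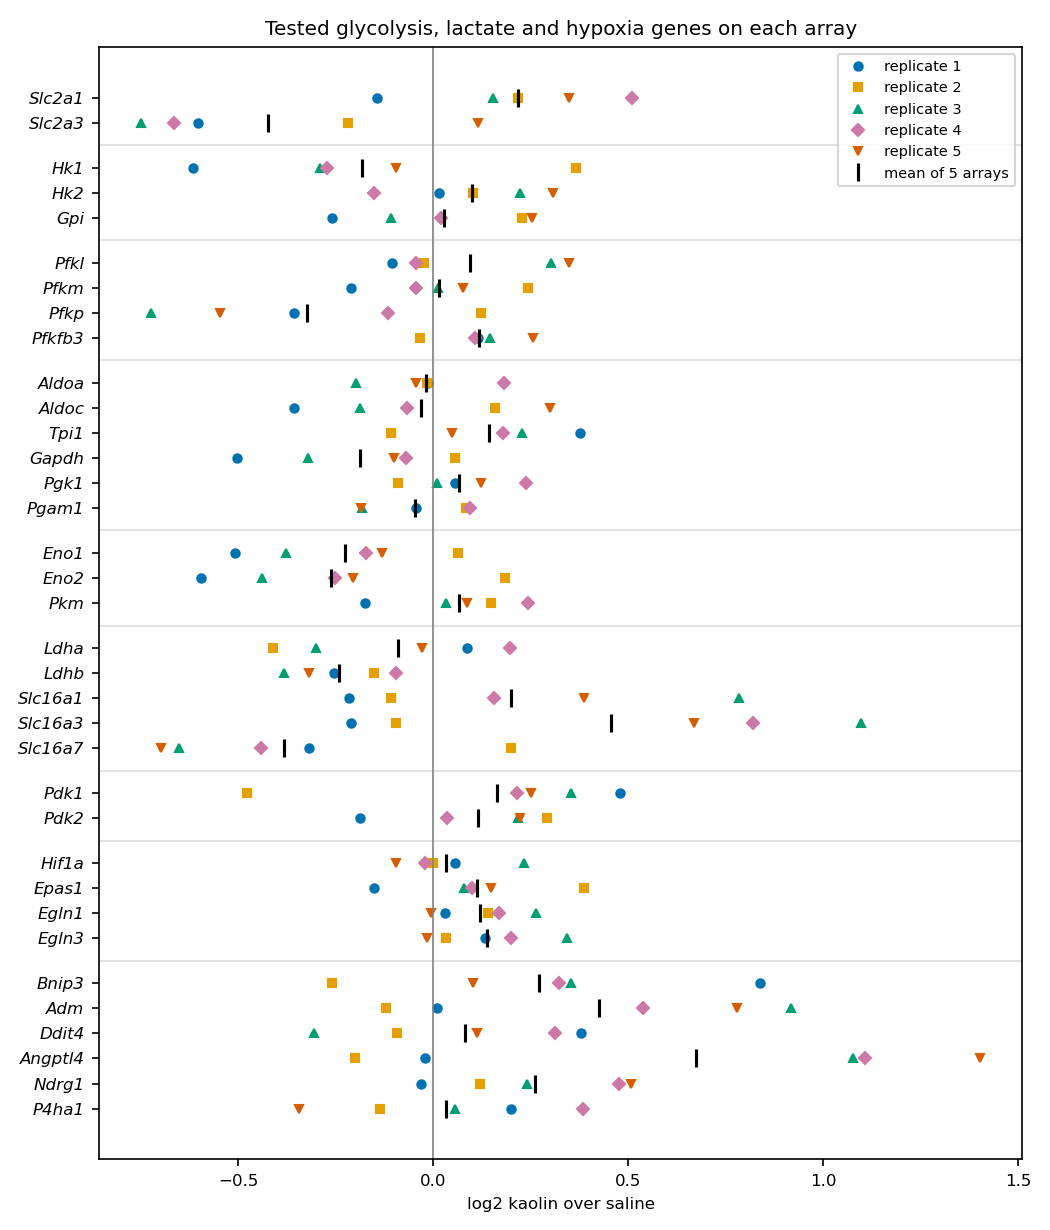
Log2 ratio of kaolin over saline for the 35 tested members, with 1 symbol per array and a black bar at the mean of 5 arrays; grey lines part the genes by role. Angptl4, Adm and Slc16a3 were above 0.5 on replicates 3, 4 and 5 and between -0.21 and 0.01 on replicates 1 and 2. Hk1, Gapdh, Eno1 and Eno2 were lowest on replicate 1 and highest on replicate 2. The brighter Pgam1 and Ldhb were not: they were lowest on replicates 5 and 3 in that order, and both highest on replicate 4.

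**Figure D2:**
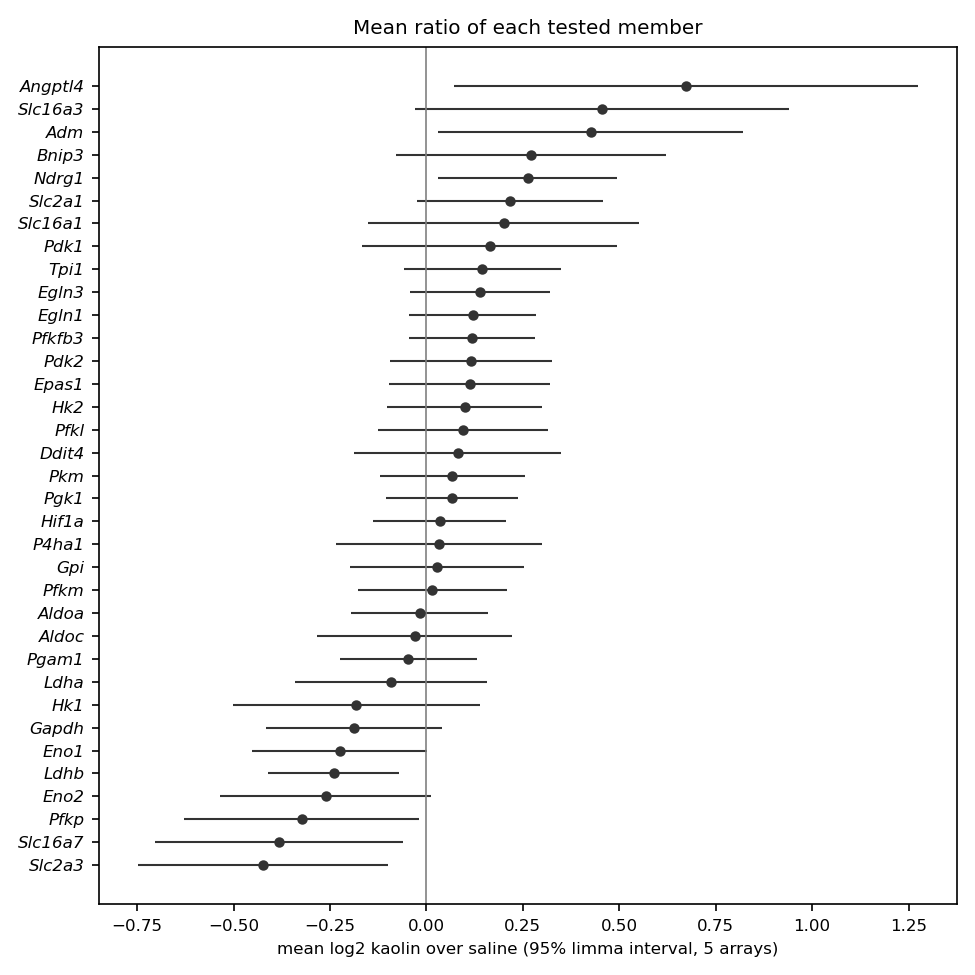
Mean log2 ratio of each tested member with the 95% interval from limma (5 arrays), in order of the mean. The intervals of Angptl4, Adm and Ndrg1 lay above 0 and those of Slc2a3, Slc16a7, Pfkp and Ldhb below it before adjustment for the number of probes tested.

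The 2 glucose transporters lay on opposite sides of 0. Slc2a3, the high-affinity transporter of neurons (probe at chr4:159214918-159214977 on rn4), had ratios of -0.60, -0.22, -0.75, -0.66 and 0.11 on replicates 1 to 5. Kaolin was the lower channel on 4 arrays, with a mean of -0.42 ± 0.36 (SD, n = 5), a 0.745-fold level (95% interval -0.75 to -0.10, adjusted p = 0.243 in limma). Its processed signal was 241, 144, 166, 118 and 310 in kaolin and 444, 182, 345, 235 and 286 in saline, so the groups overlapped. Slc2a1, the transporter of endothelium and astrocytes (chr5:139718779-139718838), had ratios of -0.14, 0.22, 0.15, 0.51 and 0.35. It was higher in kaolin on all arrays but replicate 1, with a mean of 0.22 ± 0.24 (adjusted p = 0.302 in limma). Its mean turned to -0.03 with median centring, where the median of all genes was -0.10. Endothelial and pericyte markers had medians between -0.07 and 0.21 over the arrays. The Slc2a1 ratio exceeded the Slc2a3 ratio on 5 of 5 arrays, by 0.46, 0.43, 0.90, 1.17 and 0.23 (mean 0.64 ± 0.39). Over 5 arrays the exact two-sided sign-flip permutation test cannot go below 0.0625, the value reached here (adjusted p = 0.292 over 14 pairs of related genes).

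Hexokinases trap glucose by phosphorylating it, and Gpi makes fructose 6-phosphate from the product. Hk1, the main brain isoform, had ratios of -0.62, 0.37, -0.29, -0.27 and -0.10, a mean of -0.18 ± 0.36 (adjusted p = 0.473 in limma). It was negative on all arrays but replicate 2, and its other probe gave a like mean of -0.12 ± 0.24. Hk2, the inducible isoform, was not well above background in saline on any array and was so in kaolin on 3 of 5. Its ratio was positive on 4 arrays and -0.15 on replicate 4, with a mean of 0.10 ± 0.18. The limma interval ran from -0.10 to 0.30 (adjusted p = 0.531), so either direction is possible. With the saline signal raised to a floor, the mean signal in kaolin was 1.05-fold that in saline. The floor was, on each array, the higher of the dim probe's signal and the lowest signal among probes well above background. The kaolin mean includes arrays near background, so this is an estimate and not a lower limit. Hk2 moved most with the processing, from 0.10 to 1.16 with the software's processed signals and 1.15 in the authors' deposited table of log2 ratios. Gpi stood at 0.03 ± 0.22 and its other probe at 0.07 ± 0.19; the first turned to -0.29 with median centring.

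Of the phosphofructokinases, which commit sugar to glycolysis, the platelet-type gene Pfkp differed most from 0. Pfkp (chr17:74822635-74822694) had ratios of -0.36, 0.12, -0.72, -0.12 and -0.55. Kaolin was lower on 4 arrays and higher on replicate 2, with a mean of -0.32 ± 0.34, a 0.799-fold level (95% interval -0.63 to -0.02, adjusted p = 0.262 in limma). The liver-type Pfkl and the muscle-type Pfkm stood at 0.10 ± 0.21 and 0.02 ± 0.17, both turning negative with median centring (-0.05 and -0.31). The Pfkm ratio exceeded the Pfkp ratio on 5 of 5 arrays, by a mean of 0.34 ± 0.31 (exact sign-flip p = 0.0625, the smallest possible; adjusted p = 0.292). Pfkfb3, which makes the activator fructose 2,6-bisphosphate, stood at 0.12 ± 0.10 and was positive on 4 arrays (adjusted p = 0.374 in limma). It was well above background in saline on 3 arrays and moved to 0.52 with the processed signals.

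The middle steps, from aldolase to phosphoglycerate mutase, had ratios close to 0. Their 6 members had means between -0.19 and 0.14 and none reached an unadjusted p of 0.05. Gapdh, which oxidises glyceraldehyde 3-phosphate and is often taken as a reference gene, had ratios of -0.50, 0.06, -0.32, -0.07 and -0.10, a mean of -0.19 ± 0.22 (adjusted p = 0.325 in limma). Kaolin was lower on all arrays but replicate 2. Its second probe gave -0.19 ± 0.20 and was negative on 5 of 5 arrays. Median centring took Gapdh to -0.56 and the processed signals to -0.10, so the size of its ratio depends on the dye correction. Aldoa, the ubiquitous aldolase, stood at -0.02 ± 0.14 and Aldoc, the astrocyte-rich one, at -0.03 ± 0.26; both were above 0 with the processed signals (0.06 and 0.03). Tpi1, which interconverts the triose phosphates, stood at 0.14 ± 0.18 and Pgk1, which makes ATP from 1,3-bisphosphoglycerate, at 0.07 ± 0.12, both below 0 with median centring (-0.14 and -0.24).

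Pgam1, the mutase, had 2 probes of opposite sign. The brighter had ratios of -0.04, 0.08, -0.18, 0.10 and -0.18 (mean -0.05 ± 0.14) and the other 0.38, 0.09, 0.03, 0.29 and -0.01 (mean 0.16 ± 0.17). The probes disagreed most on replicate 1. The array file places them at chr10:110469834-110469894 and chr6:9765707-9765761 on rn4, on different chromosomes. The promoter window of Pgam1 lies on chr1 (GRCr8), the chromosome of neither probe. One or both may therefore read a related copy, and the Pgam1 ratio is uncertain. Many glycolytic enzymes have processed pseudogenes, which such probes cannot always tell from the gene. Of the 7 members with 2 tested probes, the pairs of 2 differed in sign (28.6%), against 33.2% of the 3530 genes with more than 1 probe.

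**Figure D3:**
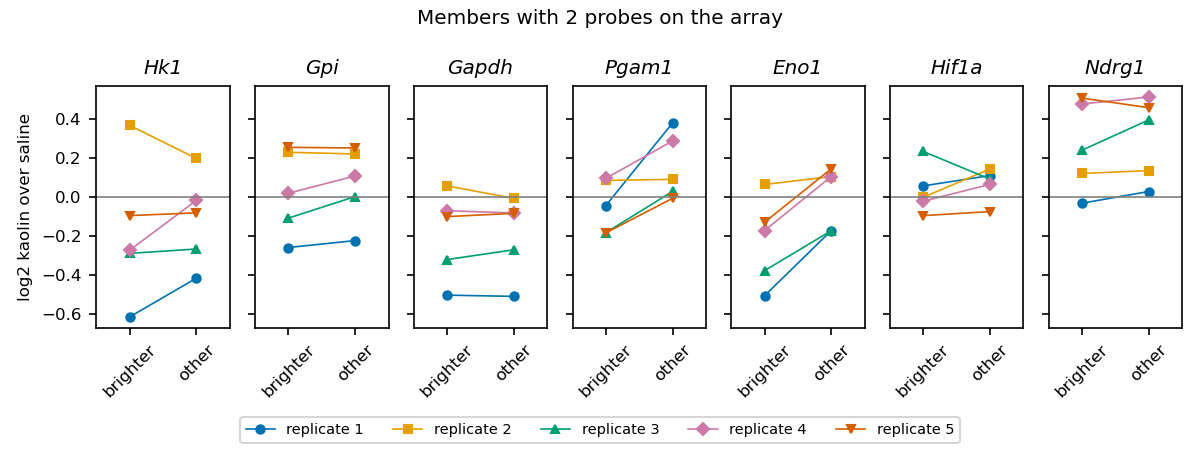
Log2 kaolin over saline of both probes of the 7 members that have 2, with 1 line per array and the brighter probe on the left. Gapdh has near-level lines (-0.50 and -0.51 on replicate 1), while Pgam1 on replicate 1 goes from -0.04 to 0.38 and Eno1 on replicate 1 from -0.51 to -0.17.

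Enolases make phosphoenolpyruvate and pyruvate kinase turns it into pyruvate. Eno2, the neuronal enolase, had ratios of -0.59, 0.18, -0.44, -0.25 and -0.20, a mean of -0.26 ± 0.29 (adjusted p = 0.286 in limma). Eno1, the enolase of most cells, followed it closely on its brighter probe, with -0.51, 0.06, -0.38, -0.17 and -0.13, a mean of -0.22 ± 0.22 (95% interval -0.45 to 0.0023, adjusted p = 0.278 in limma). Both were negative on all arrays but replicate 2, and the ratio of Eno1 less that of Eno2 was 0.04 ± 0.09 (exact sign-flip p = 0.375). Its brighter probe lies at chr5:167405364-167405424 and its other probe at chr5:167404770-167405180 on rn4. The other probe gave -0.17, 0.10, -0.17, 0.10 and 0.14, a mean of 0.00 ± 0.16, so Eno1 has no settled ratio. Median neuron marker ratios were likewise below 0 on every array but replicate 2; their part in the enolase ratios was not tested. Pkm stood at 0.07 ± 0.16 and below 0 with median centring (-0.21).

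Lactate dehydrogenase subunits differ in kinetics: Ldha favours making lactate and Ldhb favours using it. Ldhb (chr4:180061921-180063949) had ratios of -0.25, -0.15, -0.38, -0.09 and -0.32, below 0 on 5 of 5 arrays, with the smallest unadjusted p of any member. Its mean was -0.24 ± 0.12, a 0.847-fold level (limma p = 0.0122, adjusted p = 0.243; exact sign-flip p = 0.0625). The scanner software's processed signal gave a smaller mean of -0.08 (adjusted p = 0.686), and 2 arrays then had the higher signal in kaolin: 123114 against 119114 on replicate 2 and 85546 against 81752 on replicate 4. Ldha had ratios of 0.09, -0.41, -0.30, 0.20 and -0.03, a mean of -0.09 ± 0.26, with no common direction. The ratio of Ldha less that of Ldhb was 0.15 ± 0.25 and positive on 4 arrays (exact sign-flip p = 0.188).

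Monocarboxylate transporters carry lactate and pyruvate across the membrane. Slc16a3 (MCT4), an exporter of glycolytic cells (chr10:110163119-110163178), had ratios of -0.21, -0.10, 1.10, 0.82 and 0.67. It was higher in kaolin on replicates 3, 4 and 5 and slightly lower on the others, with a mean of 0.46 ± 0.58 (95% interval -0.03 to 0.94, adjusted p = 0.289 in limma). Slc16a1 (MCT1), of endothelium and glia, had -0.22, -0.11, 0.78, 0.15 and 0.39, a mean of 0.20 ± 0.40 that came to 0.00 with median centring. Slc16a7 (MCT2), the high-affinity transporter of neurons (chr7:65210821-65210880), had -0.32, 0.20, -0.65, -0.44 and -0.70. Kaolin was lower on all arrays but replicate 2, with a mean of -0.38 ± 0.36, a 0.767-fold level (95% interval -0.70 to -0.06, adjusted p = 0.246 in limma). Its processed signal ran from 620 to 1156 in kaolin and from 819 to 1435 in saline. Without replicate 2, Slc16a7 was at -0.53 and was the one member to pass (adjusted p = 0.043 in limma; over all alternatives from 0.0426 to 0.659). That is 2.86% of members, where 5.5% of all genes passed (2.46% higher, 3.04% lower) and 5.19% of probes. With arrays weighted by their agreement, Slc2a3, Slc16a7, Adm and Angptl4 passed, 4 of 35 members, where 12.3% of all genes passed. The ratio of Slc16a3 less that of Slc16a7 was 0.11, -0.30, 1.75, 1.26 and 1.37, a mean of 0.84 ± 0.88 (exact sign-flip p = 0.188).

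Pyruvate dehydrogenase kinases inhibit pyruvate dehydrogenase. Pdk1, a HIF target, had ratios of 0.48, -0.48, 0.35, 0.22 and 0.25, a mean of 0.16 ± 0.37 (adjusted p = 0.528 in limma). It was positive on all arrays but replicate 2 and came to 0.00 with median centring. Pdk2, the most widespread isoform, stood at 0.12 ± 0.20 and at -0.12 with median centring.

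The oxygen sensors and HIF subunits stayed within a narrow range. Hif1a, the alpha subunit regulated mainly through protein stability, had ratios of 0.06, -0.00, 0.23, -0.02 and -0.10, a mean of 0.03 ± 0.12 with a limma interval from -0.14 to 0.21. Its other probe gave 0.07 ± 0.08. Epas1 (HIF2 alpha), strong in endothelium, stood at 0.11 ± 0.19. The prolyl hydroxylases Egln1 and Egln3, themselves raised by HIF as feedback, stood at 0.12 ± 0.11 and 0.14 ± 0.14, each positive on 4 arrays (adjusted p = 0.372 and 0.350 in limma). With median centring all 4 means lay below 0, between -0.21 and -0.02, where the median of all genes was -0.10.

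Among the other hypoxia-responsive genes, all 6 means were above 0, where 48.1% of all genes were. Of the 6, 3 had an unadjusted p under 0.05 in limma and were higher in kaolin, where 8.46% of all genes were. These genes were chosen with earlier results of these data known. Among 25 tested genes of a wider hypoxia list, 14 means lay above 0 and 11 below, with a median of 0.02. At that unadjusted p, 3 of the 25 were higher in kaolin and 2 lower. Ddit4 and P4ha1 turned negative with median centring (-0.10 and -0.14), and P4ha1 also without replicate 1 or 4. Angptl4, a secreted inhibitor of lipoprotein lipase that responds to hypoxia and to PPAR (chr7:16262218-16262277), had the highest mean of any member. Its ratios were -0.02, -0.20, 1.08, 1.11 and 1.40, a mean of 0.67 ± 0.73, a 1.59-fold level (95% interval 0.07 to 1.27, adjusted p = 0.253 in limma). Its processed signal in kaolin was 1140, 961, 2352, 1585 and 2390, against 1118, 1119, 1075, 686 and 886 in saline. Replicates 3, 4 and 5 were thus well separated and replicates 1 and 2 were not. Adm, which encodes the vasodilator peptide adrenomedullin (chr1:168382310-168382369), had the same layout, with 0.01, -0.12, 0.92, 0.54 and 0.78. Its mean was 0.43 ± 0.46, a 1.34-fold level (95% interval 0.03 to 0.82, adjusted p = 0.259 in limma).

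Microglia and macrophage markers were high on the same 3 arrays as Angptl4, Adm and Slc16a3. All 7 had positive means and were well above background on every array in both channels, with a summed processed signal of 22177 to 119072 in kaolin and 17294 to 24023 in saline. Meningeal markers had medians of -0.31, -0.08, 0.89, -0.15 and 0.65, and all 6 had positive means, with summed signals of 31973 to 72891 and 30202 to 54910. Among astrocyte markers, 3 of 7 had positive means and the medians were -0.16, 0.26, 0.44, 0.01 and 0.25, with summed signals of 83290 to 122179 in kaolin and 71855 to 127894 in saline. Gfap, the astrocyte filament gene, was also highest on replicates 3, 4 and 5, with ratios of 0.39, 0.60, 2.81, 2.32 and 2.95 (mean 1.81 ± 1.23). Choroid plexus markers had medians of -1.59, -1.09, -1.85, -0.57 and 0.04, and 0 of 4 had a positive mean. Of these, Ttr stood at -4.11, -1.89, -4.29, -3.85 and -0.12 and Otx2 was also below 0 on 5 of 5 arrays, with its kaolin signal well above background on 1. The part of these cells in the 3 ratios was not tested.

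Ndrg1, a stress- and hypoxia-induced gene also abundant in oligodendrocytes, had ratios of -0.03, 0.12, 0.24, 0.48 and 0.51 (chr7:104302898-104302957). Its mean was 0.26 ± 0.23, a 1.2-fold level (95% interval 0.03 to 0.49, adjusted p = 0.251 in limma). Its other probe, at chr7:104317460-104318279, was positive on 5 of 5 arrays, with a mean of 0.31 ± 0.21 (95% interval 0.08 to 0.53, adjusted p = 0.243 in limma). Median centring took the brighter probe to 0.06. Oligodendrocyte markers had medians of 0.25, 0.11, 0.01, 0.24 and -0.63 on replicates 1 to 5, and their part in the Ndrg1 ratios was not tested. Bnip3, a mitophagy receptor, had ratios of 0.84, -0.26, 0.35, 0.32 and 0.10, a mean of 0.27 ± 0.40 (adjusted p = 0.347 in limma). It was highest on replicate 1, unlike Angptl4 and Adm, and came to 0.00 with median centring. Ddit4, an inhibitor of mTORC1, stood at 0.08 ± 0.28 and P4ha1, a collagen prolyl hydroxylase subunit, at 0.03 ± 0.28; neither had a common direction.

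**Figure D4:**
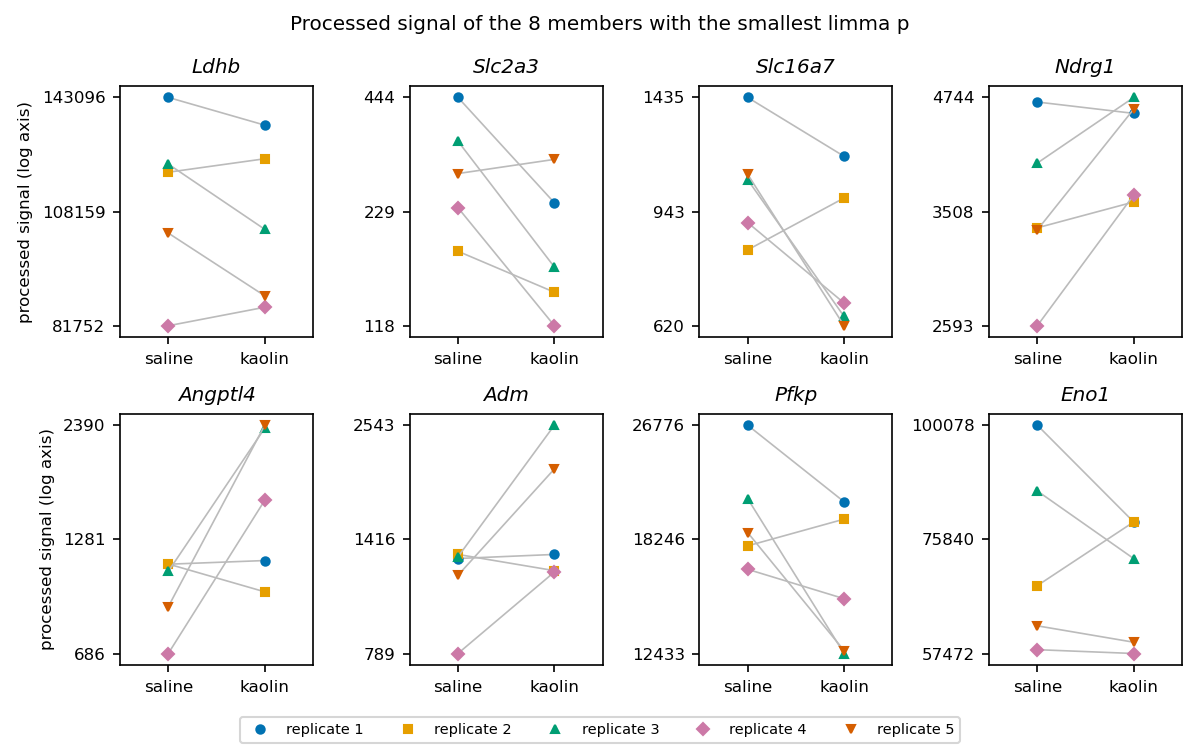
Processed signal (log axis, each panel with its own scale) of the 8 members with the smallest unadjusted limma p, in saline and kaolin, with a line joining the 2 channels of each array. In each panel the kaolin and saline values overlap; Angptl4 climbs on replicates 3, 4 and 5 (1075 to 2352, 686 to 1585 and 886 to 2390) and goes from 1118 to 1140 on replicate 1.

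**Figure D5:**
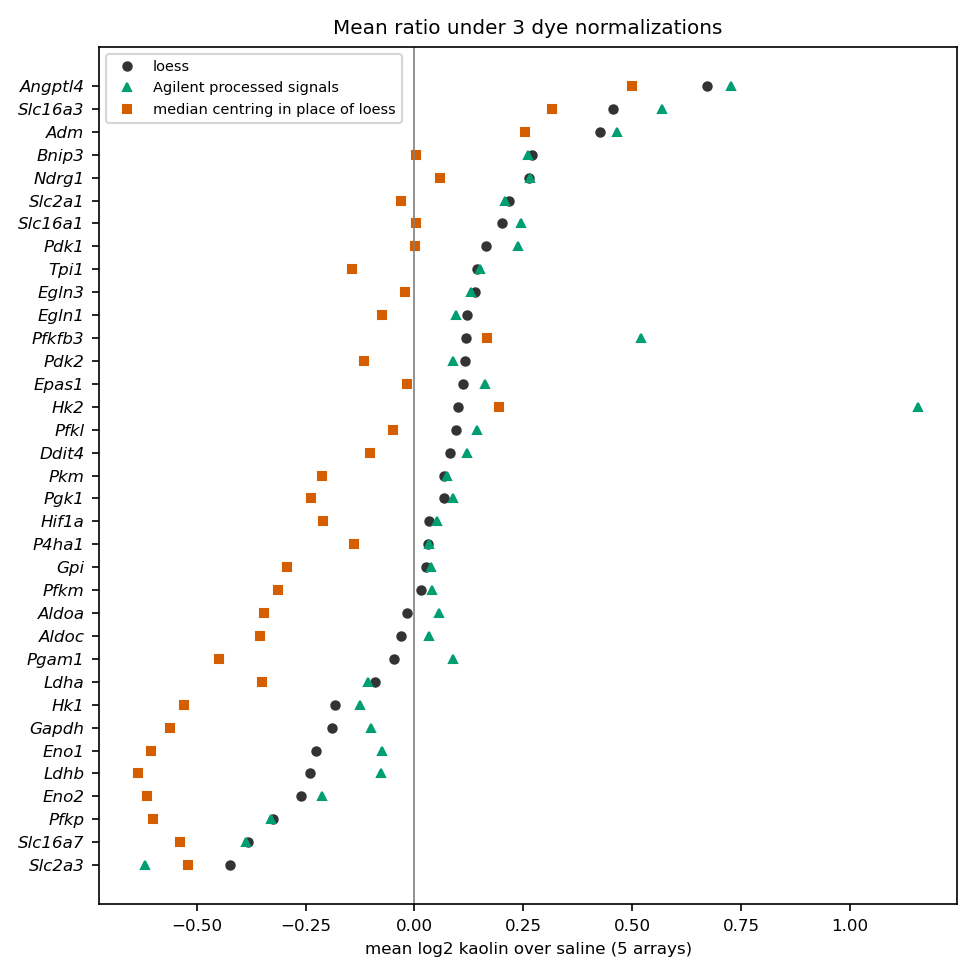
Mean log2 kaolin over saline of each tested member under loess, the software's processed signals and median centring. Median centring gave lower means for most members, such as Pgam1 (-0.45), Ldhb (-0.63) and Eno1 (-0.60), while the processed signals raise the dim Hk2 to 1.16 and Pfkfb3 to 0.52.

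A wider set of 56 genes of the same pathways, none of them members, gave 48 tested genes. In limma 0 of 48 passed an adjusted p of 0.05, and 10 (20.8%) had an unadjusted p under 0.05, with 5 higher and 5 lower, against 18.3% of all genes. Their median ratio was 0.02. Among glycolysis and pyruvate genes, Hk3, the hexokinase of myeloid cells, stood at 0.52 ± 0.57, with ratios of -0.08, -0.03, 1.23, 0.60 and 0.87. It was well above background on 3 arrays in kaolin and on 1 in saline, so its ratio rests largely on a channel near background. Pfkfb1 stood at 0.23 ± 0.20 and was also dim, well above background on 4 arrays in kaolin and on 3 in saline. Pfkfb2, a fellow regulator of phosphofructokinase, stood at -0.31 ± 0.31. Pdhb, the beta subunit of pyruvate dehydrogenase, stood at -0.24 ± 0.14. Ldhc, the testis subunit, was not well above background in kaolin and stood at -0.20 ± 0.09 (limma interval -0.36 to -0.05). Its saline signal was 1.15-fold that in kaolin, which is an estimate and not a lower limit. Among hypoxia genes, the collagen lysyl hydroxylases Plod1 and Plod2 stood at 0.40 ± 0.31 and 0.20 ± 0.15 and the stress gene Sesn2 at 0.29 ± 0.26. The HIF partner Arnt2, which is rich in neurons, stood at -0.29 ± 0.19. Vegfa, the angiogenic HIF target, stood at -0.25 ± 0.22, with ratios of -0.16, 0.08, -0.40, -0.32 and -0.47. Ratios had the same sign on 5 of 5 arrays for 6 of 48 genes, above 0 for Plod2 and Sesn2 and below 0 for Pfkfb2, Pdhb, Ldhc and Arnt2, where 12.7% of all genes did. Adjusted p-values of the 10 genes with an unadjusted p under 0.05 lay between 0.243 and 0.260 in limma.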

How the data were processed

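Members and gene lists were chosen with earlier results of these data known. Per the file headers, Agilent Feature Extraction 10.1.1.1 wrote the scanner files. Mean spot signals and local backgrounds are raw intensity, and the processed signal is intensity that the software had already corrected for background and dye, per the file headers. The deposited files' log10 ratio, from the same software, sets Cy5 over Cy3, and the spot flags are other values of 0 or 1. The authors' deposited table holds log2 ratios, with no normalization named in the labels. Set against the software's log10 ratio, its columns had slopes of -3.33 to -3.32 and correlations of -1.00 to -0.978, so it runs as kaolin over saline. Its column medians were 0.02, -0.05, -0.02, 0.09 and -0.10; its centring stays unknown.

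Outlier spots (86 to 147 per array) were left out; 0 spots were saturated. Background was corrected with normexp (offset 50) and dyes with loess, in which control spots had weight 0. Spots of 1 probe were averaged. Tested probes had 3 or more arrays with either channel well above background. The array is the pair: limma 3.58.1 (R 4.3.3, data.table, version 1.17.8) compared each probe's ratios with 0 (two-sided), and p-values were adjusted by Benjamini-Hochberg across 29118 probes. The fit was tested on simulated data with less spread per probe than these data, so that test does not show how many changes it would find here. A gene stands for its brightest tested probe. All members are named; of each wider list, the genes named are up to 3 per direction with the smallest unadjusted p under 0.05. Probes were named by RefSeq accession (10768), another accession (78), symbol (5055) or older symbol (3380), and 21731 kept the file's name. Positions are those in the files (rn4), without gene models. Alternatives changed the background correction, dye normalization, scale, filter, choice of probe, array weights and the arrays used. The number of arrays limits the precision.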

Additional observations from a re-analysis of the deposited data

Results flagged for a closer look

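On replicate 2, Pdk1 stood apart from the other arrays, with a ratio of -0.48 against 0.22 to 0.48 on the other four. Its gap to the nearest array was 0.723 of the whole range, above the 0.71 limit for 5 values. Chance marks about 1 in 20 groups, and 35 members were looked at. Without replicate 2, Pdk1 was at 0.32 (adjusted p = 0.0612 in limma).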

How the results depend on the processing

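With median centring in place of loess, 22 probes passed, and the members' median ratio was -0.14 in place of 0.07. The group medians then are given for every group but glucose uptake. They were -0.29 for hexokinases and Gpi, -0.18 for phosphofructokinases, -0.35 for aldolases to Pgam1 and -0.60 for enolases and Pkm. They were -0.35 for lactate genes, -0.058 for pyruvate dehydrogenase kinases, -0.048 for HIF subunits and hydroxylases and 0.031 for the other hypoxia genes. Of 35 members, 14 had the other sign. Over all genes, 30.3% then had a mean above 0, against 48.1% with loess, and the median was -0.10. The cause was not tested. With array weights 3477 probes passed, with 4 of 35 members (Slc2a3, Slc16a7, Adm and Angptl4) and 5 of 48 wider-list genes. Of all genes 12.3% passed in that setting. Replicate 2 had the lowest weight, 0.46. With the sign of replicate 2 turned, since it correlated negatively with every other array, 486 probes passed. Leaving out 1 array gave 0 to 1512 probes, 0 to 1 members and 0 wider-list genes; the 1512 and the 1 member came without replicate 2, and 1 probe passed without replicate 1. The members' median ran from 0.03 to 0.09 over these. Group medians ran from -0.19 to -0.04 for glucose uptake, -0.03 to 0.10 for hexokinases, 0.02 to 0.10 for phosphofructokinases, -0.05 to 0.02 for aldolases to Pgam1, -0.30 to -0.15 for enolases, -0.16 to -0.01 for lactate genes, 0.10 to 0.20 for the kinases, 0.08 to 0.14 for HIF genes and 0.23 to 0.35 for the other hypoxia genes. Of 558 member values under 16 alternatives, 527 moved by less than 1 SD with no new call. The strict filter left 33 members, without Hk2 and Pfkfb3. The test is paired throughout, since each ratio sets both samples of 1 array against each other, and no further replicate block could be fitted. Slide 2 held replicate 5 alone, so leaving it out gives the values within slide 1.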
